A study of Mus musculus with 46 samples.

Results

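Gene expression was compared between livers labelled as Falcor knockout and control livers on the diet labelled NCD. This comparison uses 4 knockout libraries (KO-1, KO-2, KO-4 and KO-5) and 4 control libraries (Ctrl-2, Ctrl-3, Ctrl-4 and Ctrl-5), 8 of the 46 libraries of the series, all made from total RNA of mouse liver depleted of ribosomal RNA. The members are the libraries of the NCD table, and they were compared across the 9536 genes, of 55774 rows, whose mean value was at least 3. The series places these livers in its normal physiological setting, beside 5 control and 6 knockout livers of the HFD diet label and experiments with Falcor hairpins in AML12, a mouse hepatocyte cell line. The sources used here do not give the strain, sex and age of the mice, the hour at which livers were taken, the way the knockout was made or the genotype of the controls. Nor do they say whether each library came from its own animal, and p-values here therefore cover the spread between libraries, which may be technical.

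Falcor is a long noncoding RNA gene beside Foxa2, which encodes a forkhead transcription factor of endoderm and hepatocytes. The study placed the RNA in nuclear speckles, bodies that concentrate splicing factors and RNAs awaiting processing and export. The liver itself makes most plasma proteins, handles bile acids, drugs and fat, and follows a daily rhythm in which clock transcription factors drive the output of metabolic genes.

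Values below are the deposited values divided by a scale factor per library (trimmed mean of M-values, TMM), and are always given in the order Ctrl-2, Ctrl-3, Ctrl-4, Ctrl-5 and KO-1, KO-2, KO-4, KO-5. Fold changes are knockout minus control on the scale of log2(value + 1), which understates the change of low genes, and means are given ± SD over 4 libraries. A gene was called when its limma p, adjusted by the Benjamini-Hochberg method over all 9536 genes, was below 0.05. By this rule 570 genes (5.98%) were called, 397 higher (4.16%) and 173 lower (1.81%) in the knockouts, and their median change was 0.59 in size on the log2 scale. The median fold change of all genes was 0.04. Among the tested genes 660 rows, in 262 sets, had the same values as another row in every library, and each was counted as a gene. An unadjusted limma p below 0.05, which is counted for some lists below, was found for 2843 genes (29.8%). In 84 called genes the change exceeded 1 on the log2 scale, 56 of them higher and 28 lower. The values of the 4 knockouts and the 4 controls did not overlap for 1837 genes (19.3%), 1180 higher and 657 lower, and this held for 565 of the 570 called genes. With no rescaling between libraries the median of all genes moved up by 0.17, and 1657 genes were called higher against 89 lower. With median-of-ratios factors these counts were 315 and 202.

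The 8 libraries were not alike within their groups, and this bears on every count below. Only 7 of the 570 called genes had an adjusted p below 0.03, and the median was 0.0411. Without Ctrl-5, 1707 genes (17.8%) were called, 1092 higher and 615 lower. Without any other single library between 6 and 32 genes were called: 32 without Ctrl-2, 9 without Ctrl-3, 6 without Ctrl-4, 7 without KO-1, 13 without KO-2, 9 without KO-4 and 7 without KO-5. Ctrl-5 lay between the groups on the first principal component, which held 37.2% of the variance, at −1.76 against −24.4 to −31.5 in the other controls and 13.8 to 32.3 in the knockouts. Falcor, Mup15 and Mup17 were called in all 8 of these fits, and 526 genes in 1 of them. Gm14567 and Gm29819 were also called in all 8. Both were listed at 0 in every control and passed the filter through the knockouts alone, so these calls lend them no support. Falcor passed it through the controls alone, and its calls only check the labels. Depth is unknown, because the deposited values are not counts, and column totals were 833910 to 872375.

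Transcript base composition moved with the groups. Across 9014 genes with a known transcript GC content, fold changes had a Spearman correlation of −0.44 with GC content, against 0.00 for the same knockout on the diet labelled HFD. These are values across genes, which share libraries and are not replicates. The fifth of genes with the lowest GC content had a median fold change of 0.23, with 180 genes called higher and 17 lower, and the fifth with the highest had −0.16, with 17 higher and 74 lower. Deviations of single libraries rose with GC content in Ctrl-2, Ctrl-3 and Ctrl-4 (Spearman 0.31 to 0.37), were flat in Ctrl-5 (0.00), and fell with it in the knockouts (−0.16 to −0.46). A fit with this trend removed from each library called 247 genes (2.74%), 128 higher and 119 lower, and 201 of these were among the 570. After the same correction and without Ctrl-5, 1176 genes (13.0%) were called. The main groups of genes are therefore given with their counts in the fit of all 8 libraries, in the GC-corrected fit and without single libraries. Of the tested genes 663 had a mean below 3 in 1 group and so passed the filter through the other group alone. Of these 36 were called, 29 higher and 7 lower, and those named below other than Falcor are marked as such.

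**Figure D1:**
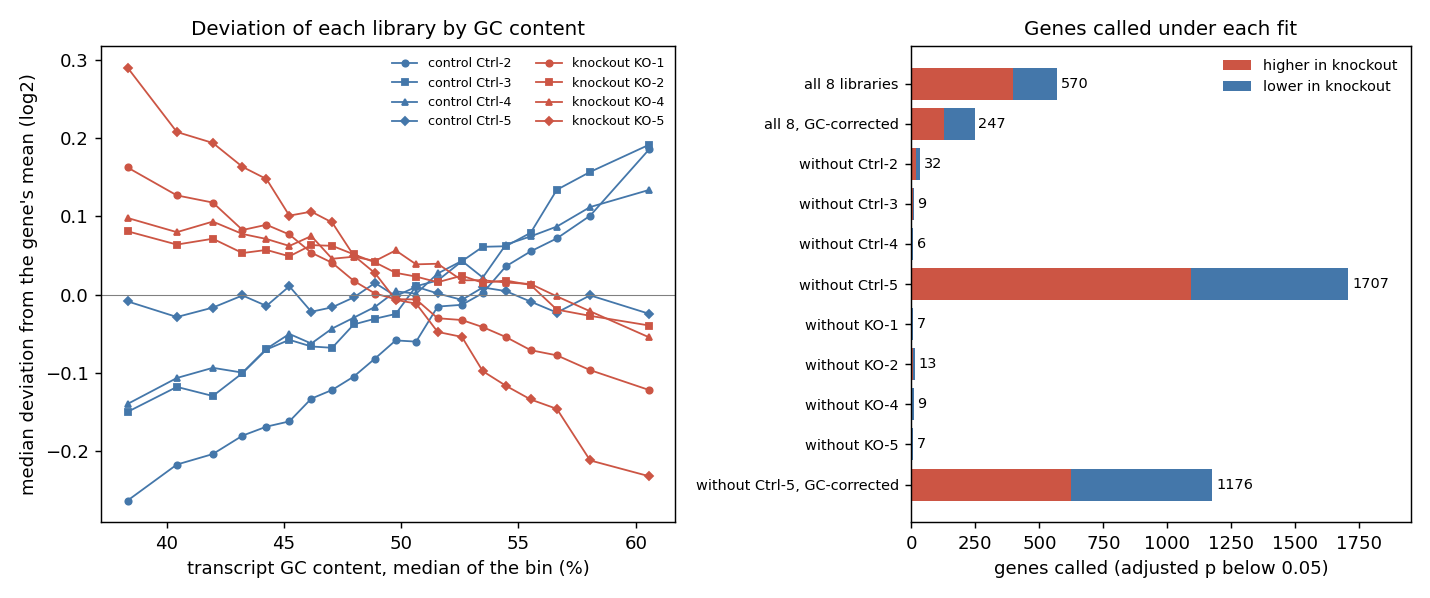
Left, the median deviation of each library from the gene means (log2) for bins of genes ordered by transcript GC content (%), with controls in blue and knockouts in red. Right, the number of genes called at an adjusted p below 0.05 in each fit, split by direction: 570 with all 8 libraries, 247 after GC correction, 1707 without Ctrl-5 and 6 to 32 without any other single library.

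Falcor checks the labels. The gene, a lincRNA under the symbol 9030622O22Rik (ENSMUSG00000086141.7), lies on chromosome 2 at 147944740 to 148040203 of mm10, minus strand. Its values were 79.7, 118, 125 and 141 in the controls and 0, 0, 0 and 0 in the knockouts. Falcor was thus present in each control and listed at 0 in each knockout (limma adjusted p = 1.91e-07). The adjusted p stayed at or below 6.29e-06 without any single library. Falcor passed the filter through the controls alone and is the gene the knockout label names, so these p-values only check the labels.

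Of the genes around Falcor 1 was called. Foxa2 (ENSMUSG00000037025.11), 2674 bp from Falcor on the same strand of chromosome 2 at 148042877 to 148046969, had values of 12.5, 21.6, 21.3 and 21.0 in the controls and 19.9, 18.6, 11.3 and 16.2 in the knockouts. The groups overlapped, Ctrl-2 being the lowest control, and Foxa2 did not pass the test (log2 fold change −0.20 ± 0.22 SE, limma adjusted p = 0.573). Of 44 annotated genes within 1 Mb, counting Falcor, 6 had a mean of at least 3, Falcor and 5 others. The called gene, Xrn2, which encodes a nuclear exonuclease that acts in transcription termination, had values of 10.2, 9.25, 9.59 and 11.5 in the controls and 13.0, 13.7, 14.8 and 14.4 in the knockouts. It rose (log2 fold change 0.43 ± 0.09 SE, limma adjusted p = 0.0389), with every knockout above every control, but missed the threshold after GC correction (0.25, adjusted p = 0.115). Kiz, which encodes a centrosomal protein, was at 5.15 ± 0.655 in the knockouts against 3.47 ± 0.499 in the controls and missed the threshold (log2 fold change 0.46 ± 0.12 SE, limma adjusted p = 0.0563). The zinc finger gene Gzf1 (0.04, adjusted p = 0.766) and the cystatin C gene Cst3 (−0.14, adjusted p = 0.235) did not pass. The fold change of Gzf1 turned to −0.06 after GC correction, and that of Cst3 to 0.05 with no rescaling. Zc3h11a, which encodes the speckle and export protein the series pairs with Falcor and whose symbol covers 2 overlapping gene models, was at 9.34 ± 2.26 in the knockouts against 8.80 ± 0.754 in the controls (log2 fold change 0.05 ± 0.16 SE, limma adjusted p = 0.852). Its fold change turned to −0.07 without KO-4, and it was not in the GC-corrected fit.

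After Falcor, the largest fold decreases among the 570 called genes were in the major urinary protein (MUP) family. These small lipocalins are made by hepatocytes, secreted and excreted in urine, where they carry pheromones, and their genes form a cluster of near-identical copies on chromosome 4. Of 20 tested MUP genes, 10 fell and none rose, and the median fold change of the list was −1.04 against 0.04 over all genes. The shares called over all genes were 1.81% lower and 4.16% higher. After GC correction 11 fell, Mup19 being the eleventh, with a median of −1.25, beside 2.74% of all genes called. Without Ctrl-5, 10 fell and 2 rose, beside 17.8% of all genes called. Without any other single library 2 to 5 were called. With no rescaling 11 fell and 2 rose. These transcripts have a low median GC content of 41.9%, and most genes of low GC content had fold changes above 0.

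Mup15 (chromosome 4 at 61435790 to 61439743, minus strand, mm10) had values of 577, 1359, 836 and 1158 in the controls and 17.9, 54.0, 9.56 and 17.1 in the knockouts. Every knockout was far below every control, the nearest pair being 577 in Ctrl-2 and 54.0 in KO-2 (log2 fold change −5.47 ± 0.49 SE, limma adjusted p = 0.00690). Mup17 (chromosome 4 at 61591929 to 61595871, minus strand) had values of 313, 576, 364 and 770.1 in the controls and 28.9, 28.5, 10.4 and 22.5 in the knockouts. The groups were again well separated (log2 fold change −4.43 ± 0.38 SE, limma adjusted p = 0.00647), and both genes were called in each of the 8 fits without 1 library, with and without GC correction.

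A further 8 MUP genes fell by less. Mup1 had values of 1324, 1546, 1107 and 2914 in the controls and 298, 328, 464 and 172 in the knockouts, with Ctrl-5 the highest and KO-5 the lowest library (log2 fold change −2.43 ± 0.37 SE, limma adjusted p = 0.0314). Mup12 had values of 539, 689, 489 and 1033 in the controls and 141, 172, 168 and 85.6 in the knockouts (log2 fold change −2.26 ± 0.29 SE, limma adjusted p = 0.0314). Mup9 had values of 157, 399, 163 and 350.0 in the controls and 71.8, 46.1, 69.5 and 62.2 in the knockouts (log2 fold change −1.97 ± 0.33 SE, limma adjusted p = 0.0322). None of these 3 genes had a knockout that reached the lowest control. Mup2 (−1.76), Mup11 (−1.32), Mup14 (−1.17), Mup7 (−1.13) and Mup16 (−0.94) also fell, with adjusted p-values of 0.0314 to 0.0476, and each kept its call after GC correction. Mup7 was at 6115 ± 1157 in the knockouts against 13732 ± 4689 in the controls.

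Other members of the family did not fall. Mup3 had values of 5037, 5381, 5817 and 6511 in the controls and 6674, 7316, 6736 and 7531 in the knockouts. Its knockouts all lay above its controls, but it missed the threshold (log2 fold change 0.32 ± 0.11 SE, limma adjusted p = 0.0917), and its fold change was 0.07 after GC correction. Mup20, the male pheromone also called darcin, was at 11109.6 ± 2414 in the knockouts against 7491 ± 1734 in the controls, with overlapping groups (log2 fold change 0.58 ± 0.22 SE, limma adjusted p = 0.121). Mup21 was at 489.9 ± 116 in the knockouts against 287 ± 83.2 in the controls and also overlapped (log2 fold change 0.78 ± 0.22 SE, limma adjusted p = 0.0654). The summed value of all MUP genes was 46083 to 80182 in the controls and 39639 to 45191 in the knockouts. As a share of the deposited column, which is not rescaled, the groups overlapped, at 4.64 to 8.82% against 4.86 to 5.93%.

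**Figure D2:**
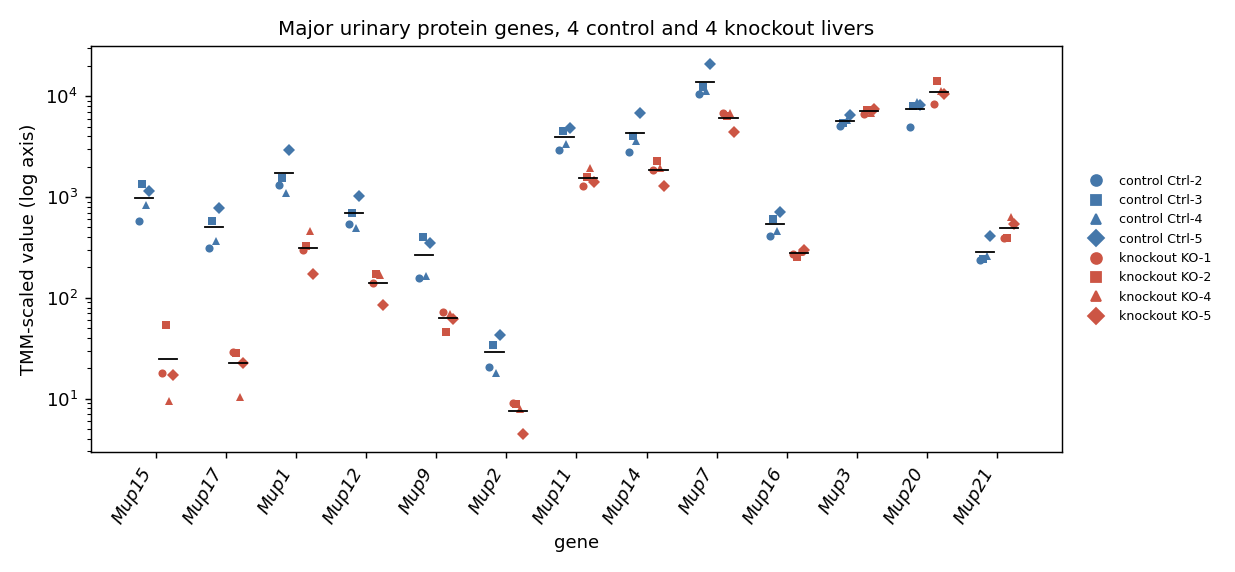
TMM-scaled values (log axis) of 13 major urinary protein genes in each of the 4 control (blue) and 4 knockout (red) libraries, with a black bar at each group mean. Mup15 and Mup17 sit between 313 and 1359 in the controls and between 9.56 and 54.0 in the knockouts, while Mup3, Mup20 and Mup21 have higher means in the knockouts and did not pass the test.

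How far single MUP genes can be told apart depends on their sequence. Of the 31-base words of Mup15 transcripts in the mm10 annotation, 0% were found in no other gene of the family, and 88.6% were shared with Mup2. The unique share was 13.8% for Mup17, 35.5% for Mup20, 66.2% for Mup21 and 69.9% for Mup3. Values of Mup15 can thus include reads of its copies, and the split between copies by the authors' counting is uncertain for the genes with few words of their own. The 250 bases before the RefSeq start sites of Mup15 (chr4:61439705-61439954), Mup17 (chr4:61595833-61596082) and Mup3 (chr4:62087318-62087567), minus strand, GRCm38.p6, are shown because the first 2 genes fell most and Mup3 did not fall. Mup15 and Mup17 matched at 247 of 253 columns of a global alignment (97.6%), and Mup3 matched Mup15 at 59.6% and Mup17 at 58.9%. Gap columns count as mismatches in these shares, which therefore understate the identity of paired bases. Among other called MUP genes with a RefSeq entry, the match with Mup15 ran from 43.6% (Mup7) to 93.0% (Mup2). The shares thus do not set the genes that fell apart from Mup3.
Mup15: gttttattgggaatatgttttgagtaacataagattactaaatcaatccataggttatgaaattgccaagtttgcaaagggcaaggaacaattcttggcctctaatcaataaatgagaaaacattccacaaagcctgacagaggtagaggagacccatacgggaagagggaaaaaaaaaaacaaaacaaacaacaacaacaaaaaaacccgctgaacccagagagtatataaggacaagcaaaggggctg
Mup17: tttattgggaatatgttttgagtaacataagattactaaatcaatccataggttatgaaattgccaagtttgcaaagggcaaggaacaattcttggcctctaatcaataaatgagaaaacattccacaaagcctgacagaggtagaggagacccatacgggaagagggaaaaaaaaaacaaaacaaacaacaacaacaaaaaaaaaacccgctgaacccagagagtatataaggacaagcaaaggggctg
Mup3: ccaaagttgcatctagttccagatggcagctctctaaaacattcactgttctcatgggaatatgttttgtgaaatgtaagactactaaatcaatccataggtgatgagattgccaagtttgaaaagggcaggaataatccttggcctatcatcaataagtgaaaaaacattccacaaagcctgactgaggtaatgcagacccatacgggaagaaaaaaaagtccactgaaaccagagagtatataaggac

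MUP genes also made up 6 of the 9 called genes among 38 tested male-biased liver genes, and all 6 fell. The share called over all genes was 5.98%. The 3 that rose were the arylsulfatase gene Arsa, the organic anion transporter gene Slco1a1 and Keg1. After GC correction 1 rose and 6 fell, 5 rose and 6 fell without Ctrl-5, and without any other single library at most 3 were called. Limma called none of 4 tested female-biased genes, 2 of which were higher at an unadjusted p below 0.05. All 4 had fold changes above 0, with a median of 1.25, or 1.13 after GC correction, and in each the groups overlapped.

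Several genes of the circadian clock loop rose. The clock runs on transcription factors that switch on their own repressors through E-box elements, and on a second tier of factors that pass the rhythm to liver metabolism. Of 22 tested genes, 8 rose and none fell, and the list's median fold change was 0.46 against 0.04 over all genes. Among all genes 4.16% were called higher and 1.81% lower. After GC correction 4 rose, with a median of 0.43, beside 2.74% of all genes called. Without Ctrl-5, 9 rose, or 8 with GC correction as well, beside 17.8% and 13.0% of all genes called. Without any other single library at most 3 were called. Ciart and Wee1 had control means below 3 and entered the test through the knockouts alone, and 6 of the 8 called genes had both group means at 3 or more. The hour at which each liver was taken is unknown here.

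Among the repressors, Per1 (chromosome 11 at 69095217 to 69109960, plus strand), which encodes a core repressor of the clock, had values of 3.41, 5.14, 2.13 and 3.14 in the controls and 8.97, 9.81, 13.0 and 13.5 in the knockouts. The lowest knockout stood above the highest control (log2 fold change 1.49 ± 0.21 SE, limma adjusted p = 0.0314). Ciart (chromosome 3 at 95878503 to 95882251, minus strand), which encodes a transcriptional repressor that binds the clock activator complex, had values of 3.41, 4.11, 2.13 and 2.10 in the controls and 9.97, 8.83, 6.95 and 8.11 in the knockouts. The groups did not overlap, and Ciart was called with the filter (log2 fold change 1.29 ± 0.19 SE, limma adjusted p = 0.0314) and without it (adjusted p = 0.0417). Bhlhe40, a repressor that competes for E-boxes, had values of 31.9, 38.0, 25.6 and 25.1 in the controls and 37.9, 59.9, 65.2 and 49.6 in the knockouts. It was called (log2 fold change 0.79 ± 0.19 SE, limma adjusted p = 0.0489) although KO-1 lay below Ctrl-3, and it missed the threshold after GC correction (0.74, adjusted p = 0.0687) and without Ctrl-5 (adjusted p = 0.0574).

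Among the factors that carry the rhythm to other genes, Dbp (chromosome 7 at 45705088 to 45710203, plus strand) had values of 25.0, 54.5, 30.9 and 26.2 in the controls and 76.7, 59.9, 69.5 and 72.1 in the knockouts. Ctrl-3 was close to the lowest knockout, and the other 3 controls were far below (log2 fold change 1.07 ± 0.23 SE, limma adjusted p = 0.0422). Its relatives with the same type of DNA-binding domain, Tef and Hlf, were at 53.4 ± 4.99 in the knockouts against 33.8 ± 4.84 in the controls (log2 fold change 0.65 ± 0.11 SE, limma adjusted p = 0.0322) and 7.69 ± 0.562 in the knockouts against 5.35 ± 0.239 in the controls (log2 fold change 0.45 ± 0.08 SE, limma adjusted p = 0.0351). Nr1d2, which encodes the heme-binding repressor REV-ERB beta, had values of 11.4, 18.5, 13.9 and 17.8 in the controls and 27.9, 23.5, 26.1 and 35.1 in the knockouts. It rose with no overlap (log2 fold change 0.84 ± 0.17 SE, limma adjusted p = 0.0389). Wee1, a clock-controlled kinase gene that restrains entry into mitosis, had values of 1.14, 2.06, 1.07 and 1.05 in the controls and 4.98, 3.92, 2.61 and 6.31 in the knockouts, near the lower end of what was measured. It was called with the filter (log2 fold change 1.20 ± 0.26 SE, limma adjusted p = 0.0422) and without it (adjusted p = 0.0422). After GC correction Hlf (0.30, adjusted p = 0.0872), Nr1d2 (0.62, 0.0528) and Wee1 (1.17, 0.0511) missed the threshold, and of the 3 the fold change of Wee1 moved least.

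The other 14 tested clock genes did not pass. Of all 22, 19 had fold changes above 0 and 14 were higher at an unadjusted p below 0.05, against none lower. Over all genes 29.8% had such a p in either direction. Per2, a second period gene, had values of 6.83, 13.4, 9.59 and 4.19 in the controls and 9.97, 8.83, 7.82 and 9.91 in the knockouts. The groups overlapped (log2 fold change 0.19 ± 0.28 SE, limma adjusted p = 0.683), and the fold change was −0.08 without Ctrl-5. Clock, which encodes an activator of the loop, was at 8.87 ± 0.595 in the knockouts against 9.08 ± 0.998 in the controls (log2 fold change −0.03 ± 0.09 SE, limma adjusted p = 0.862), and its fold change was 0.15 with no rescaling. Per2 and Clock were chosen after their values were seen.

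**Figure D3:**
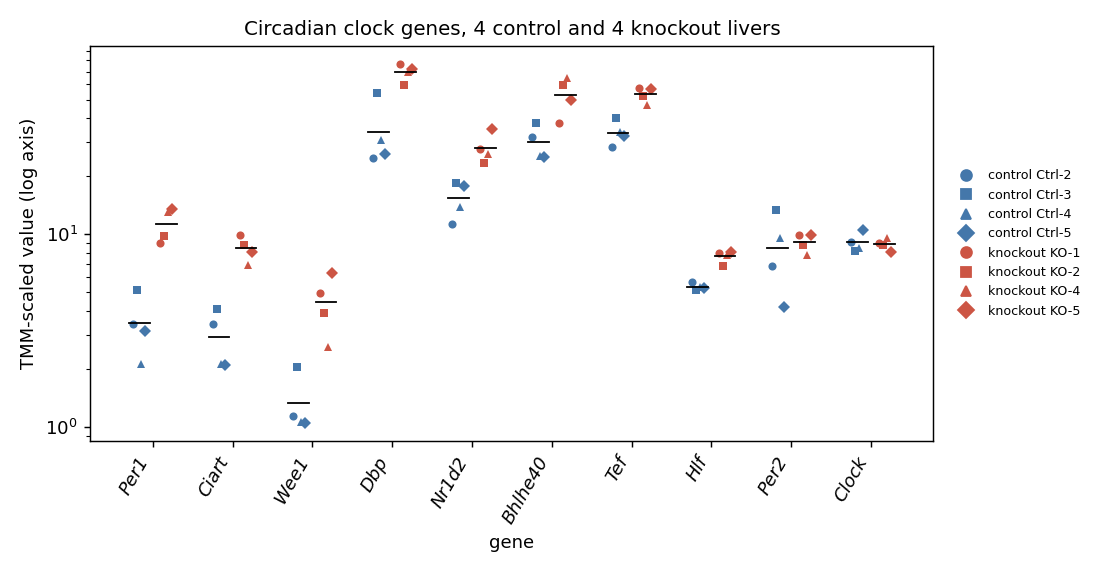
TMM-scaled values (log axis) of 10 circadian clock genes in each of the 4 control (blue) and 4 knockout (red) libraries, with a black bar at each group mean. Per1 lies at 2.13 to 5.14 in the controls and 8.97 to 13.5 in the knockouts, and Per2 and Clock overlap.

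Promoters of the called clock genes were searched for the E-box CACGTG, whose letters read the same on both strands, in the 250 bases before each RefSeq start site. RefSeq entries matched 6 of the 8 called genes, and 3 of the 6 held it (Per1, Ciart and Tef), as did 3 of the 15 matched clock genes. The motif was in 6.02% of 32851 entries, in 10.6% of 6623 matched tested genes and in 16.0% of 263 matched genes called higher. A match is a sequence feature and does not show that a factor binds. The promoters of Ciart (chr3:95882229-95882478, minus strand) and Per1 (chr11:69098699-69098948, plus strand, 1 of its 2 entries), GRCm38.p6, are printed because these genes had the largest fold changes of the list, and capitals mark each CACGTG.
Ciart: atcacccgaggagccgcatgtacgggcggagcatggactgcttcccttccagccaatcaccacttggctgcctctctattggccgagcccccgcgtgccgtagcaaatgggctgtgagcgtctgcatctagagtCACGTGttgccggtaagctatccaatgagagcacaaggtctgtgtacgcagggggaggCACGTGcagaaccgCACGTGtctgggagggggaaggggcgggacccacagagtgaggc
Per1: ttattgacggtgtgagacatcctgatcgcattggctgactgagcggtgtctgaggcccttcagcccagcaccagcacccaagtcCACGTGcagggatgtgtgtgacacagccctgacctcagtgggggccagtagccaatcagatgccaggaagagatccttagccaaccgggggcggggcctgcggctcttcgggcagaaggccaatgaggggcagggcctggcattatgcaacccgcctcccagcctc
Ciart held 3 copies, the farthest beginning 116 bases and the nearest 44 bases before the start site, and Per1 held 1, beginning 166 bases before it.

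Some RNAs encoded by the mitochondrial genome rose, 1 fell and 9 did not pass. The mitochondrial genome encodes subunits of the respiratory chain and ATP synthase, transcribed as long precursors from both strands. Of 16 tested RNAs, 6 rose and 1 fell, with a median fold change of 1.18, beside 4.16% of all genes called higher and 1.81% lower. After GC correction 1 rose and 1 fell, with a median of 0.92, beside 2.74% of all genes called. Without Ctrl-5, 10 rose and 1 fell, beside 17.8% of all genes called. Without any other single library none of the 16 was called. With no rescaling 11 rose and 1 fell, where 1657 of all genes were called higher and 89 lower. With median-of-ratios factors 3 rose and 1 fell. These transcripts have a low median GC content of 36.5%, and mitochondrial RNAs made up 1.56 to 2.01% of the control columns and 2.53 to 4.72% of the knockout columns.

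The largest increase was that of mt-Atp8, which encodes a small subunit of ATP synthase, with values of 72.8, 49.4, 83.1 and 235 in the controls and 629, 455, 461 and 2223 in the knockouts. Ctrl-5 was the highest control and KO-5 stood apart from the other knockouts (log2 fold change 2.99 ± 0.62 SE, limma adjusted p = 0.0421). The neighbouring mt-Atp6, another subunit whose gene overlaps mt-Atp8, had values of 808, 669, 855 and 1226 in the controls and 1855, 1581, 1466 and 3123 in the knockouts (log2 fold change 1.14 ± 0.27 SE, limma adjusted p = 0.0463). Among subunits of complex I, mt-Nd4l (1.40 ± 0.30), mt-Nd4 (1.27 ± 0.30) and mt-Nd2 (1.23 ± 0.24) rose, and so did mt-Cytb of complex III (1.23 ± 0.30). In all of these KO-5 was the highest of the 8 libraries. Of these 6 genes mt-Nd2 kept its call after GC correction (adjusted p = 0.0474).

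In contrast, mt-Nd6, the one mRNA of the light strand, had values of 4310.3, 4597, 3005 and 1949.9 in the controls and 1426, 1512, 1242 and 1726 in the knockouts. The groups did not overlap, with Ctrl-5 the lowest control (log2 fold change −1.16 ± 0.26 SE, limma adjusted p = 0.0442), and the call held after GC correction (−1.52, adjusted p = 0.0442). Whether the authors' counting used strand is not given in the sources used here. Of 79 tested respiratory chain genes encoded in the nucleus, none rose and 2 fell, Cox6b1 and Ndufb4c, with a median of 0.00. After GC correction 3 fell, and 6 rose and 8 fell without Ctrl-5. Of 68 mitochondrial ribosomal protein genes 1 rose and 1 fell, 1 fell after GC correction, and 3 rose and 6 fell without Ctrl-5. Without any other single library at most 1 gene of these 2 lists was called. Both lists stand beside 5.98% of all genes called with all 8 libraries.

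**Figure D4:**
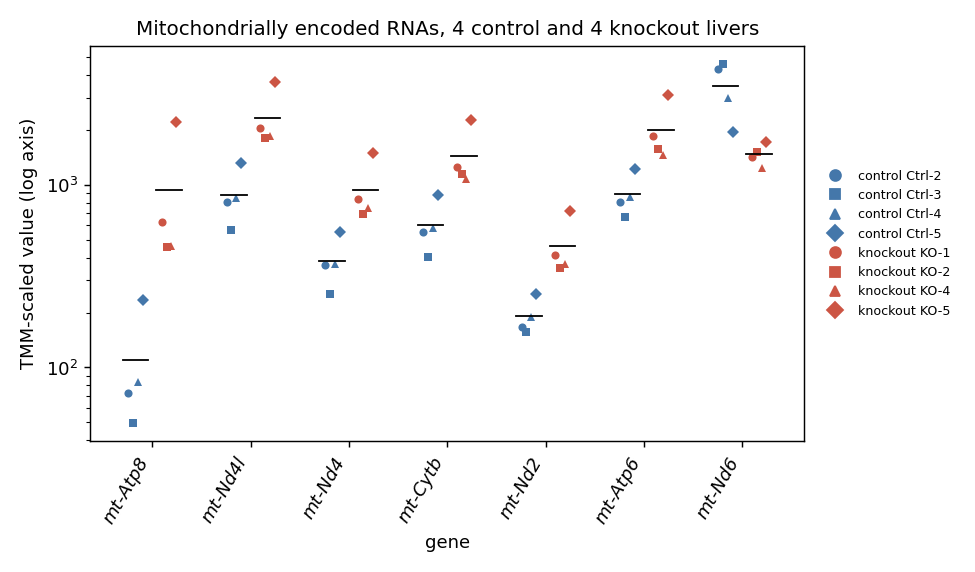
TMM-scaled values (log axis) of 7 mitochondrially encoded mRNAs in each of the 4 control (blue) and 4 knockout (red) libraries, with a black bar at each group mean. The 6 that rose are highest in KO-5, as for mt-Atp8 at 2223 against 49.4 to 235 in the controls, and mt-Nd6 is lower in every knockout.

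Genes of drug and toxin handling rose more often than they fell. The liver oxidises such compounds with cytochromes P450, joins them to glutathione, glucuronide or sulfate, and exports the products. Of 60 tested conjugation genes 8 rose and 1 fell (median 0.31), and 3 rose and 1 fell after GC correction. Of 33 cytochromes P450 of families 1 to 3, 5 rose and none fell (median 0.36, and 3 after GC correction, 1 of them the reductase gene Por). Of 28 genes of the NRF2 antioxidant response, which overlaps the conjugation list, 6 rose and none fell (median 0.39, and 3 after GC correction). Without Ctrl-5 the conjugation list had 27 higher and 2 lower, P450 genes 17 higher and NRF2 genes 11 higher. Without any other single library at most 1 gene of each list was called. Background shares were 4.16% higher and 1.81% lower over all genes.

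Gstm3, which encodes a mu-class glutathione transferase, had values of 20.5, 18.5, 34.1 and 28.3 in the controls and 59.8, 53.0, 52.1 and 53.2 in the knockouts. All knockouts were above all controls, with KO-1 slightly apart from the other 3 (log2 fold change 1.11 ± 0.18 SE, limma adjusted p = 0.0314). Gstm1, of the same class, had values of 599, 685, 814 and 812 in the controls and 1424, 1237, 1075 and 1499 in the knockouts (log2 fold change 0.85 ± 0.14 SE, limma adjusted p = 0.0318). Sult2a8, a bile acid sulfotransferase gene, was at 195 ± 22.6 in the knockouts against 119 ± 14.2 in the controls (log2 fold change 0.71 ± 0.11 SE, limma adjusted p = 0.0314). Nfe2l2, which encodes the transcription factor NRF2 itself, was at 26.3 ± 2.62 in the knockouts against 17.1 ± 1.51 in the controls (log2 fold change 0.59 ± 0.10 SE, limma adjusted p = 0.0318). The glutathione synthesis genes Gclm and Gclc also rose but missed the threshold after GC correction. The gene of this list that fell was Nnmt, which encodes nicotinamide N-methyltransferase, with values of 68.3, 89.5, 82.1 and 91.2 in the controls and 41.9, 34.3, 55.6 and 22.5 in the knockouts, every knockout lying below every control (log2 fold change −1.14 ± 0.25 SE, limma adjusted p = 0.0440).

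Cyp2e1, which encodes the ethanol-inducible P450 of pericentral hepatocytes, had values of 2715, 2315, 2394 and 3125 in the controls and 4243, 3789, 4311 and 4554 in the knockouts. The groups did not overlap (log2 fold change 0.69 ± 0.12 SE, limma adjusted p = 0.0318). Cyp2c23, an arachidonic acid epoxygenase gene, was at 355 ± 38.2 in the knockouts against 217 ± 30.2 in the controls (log2 fold change 0.71 ± 0.12 SE, limma adjusted p = 0.0318). Cyp2a5, which encodes a coumarin hydroxylase, had values of 241, 263, 182 and 460.0 in the controls and 996, 457, 678 and 749.6 in the knockouts. It was called (log2 fold change 1.36 ± 0.32 SE, limma adjusted p = 0.0480) although KO-2 lay just below Ctrl-5, and it missed the threshold after GC correction (1.30, adjusted p = 0.0664).

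More genes of bile acid and sterol transport rose than fell, as over all genes, where 4.16% were called higher and 1.81% lower. Of 36 tested genes of bile acid synthesis and transport, 6 rose and 1 fell (median 0.20), 2 rose and none fell after GC correction, 13 rose and 1 fell without Ctrl-5, and none was called without any other single library. Of the uptake carriers of the sinusoidal membrane, Slco1b2 was at 323 ± 18.9 in the knockouts against 208 ± 23.2 in the controls (log2 fold change 0.64 ± 0.10 SE, limma adjusted p = 0.0314) and Slco1a4 at 25.9 ± 5.49 in the knockouts against 12.8 ± 3.17 in the controls (log2 fold change 0.97 ± 0.19 SE, limma adjusted p = 0.0388). Neither passed after GC correction (0.36 and 0.72, adjusted p = 0.0601 and 0.0733). Abcc2, the canalicular pump for conjugates, had values of 92.2, 82.3, 75.7 and 104 in the controls and 156, 138, 123 and 154 in the knockouts (log2 fold change 0.69 ± 0.12 SE, limma adjusted p = 0.0318), and it kept its call (GC-corrected adjusted p = 0.0474).

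Abcg5 and Abcg8 encode the subunits of the pump that moves cholesterol into bile, and their genes lie head to head on chromosome 17. Abcg5 had values of 27.3, 29.8, 25.6 and 34.6 in the controls and 70.8, 46.1, 40.8 and 54.1 in the knockouts (log2 fold change 0.81 ± 0.17 SE, limma adjusted p = 0.0391). Abcg8 had values of 37.6, 40.1, 35.2 and 43.0 in the controls and 86.7, 54.0, 54.7 and 64.0 in the knockouts (log2 fold change 0.70 ± 0.15 SE, limma adjusted p = 0.0421). KO-1 was the highest library in both, and no knockout fell into the control range. After GC correction Abcg8 was called (adjusted p = 0.0489) and Abcg5 was not (adjusted p = 0.0517), although its fold change was 0.80 there against 0.81 before the correction. The gene that fell was Cyp8b1, whose enzyme sets the share of cholic acid among bile acids, with values of 127, 94.6, 139.6 and 173 in the controls and 55.8, 82.4, 76.4 and 53.2 in the knockouts (log2 fold change −0.98 ± 0.21 SE, limma adjusted p = 0.0415). It missed the threshold after GC correction (−0.89, adjusted p = 0.0548).

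Genes of fat oxidation and of glycogen storage that were called with all 8 libraries rose. Of 43 genes of fatty acid oxidation and targets of PPAR alpha, the fatty acid receptor that drives this pathway, 5 rose and none fell (median 0.18), and 3 of them, Ppara, Cpt1a and Acot2, passed after GC correction. Acot2 had a control mean below 3 and entered the test through the knockouts alone. Without Ctrl-5, 11 rose. With all 8 libraries 4.16% of all genes were called higher. Fold changes, called or not, were above 0 for 37 of the 43, and the median over all genes was also above 0, at 0.04. Ppara itself had values of 59.2, 54.5, 52.2 and 52.4 in the controls and 86.7, 81.4, 78.2 and 96.4 in the knockouts. The knockouts were all higher (log2 fold change 0.64 ± 0.09 SE, limma adjusted p = 0.0314), also after GC correction (0.65, adjusted p = 0.0329). Cpt1a, which encodes the enzyme that admits fatty acids to mitochondria, was at 96.5 ± 7.63 in the knockouts against 71.4 ± 5.45 in the controls (log2 fold change 0.43 ± 0.09 SE, limma adjusted p = 0.0379), with no overlap.

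Of 44 genes of glycolysis, gluconeogenesis and glycogen, 3 rose, of which Ugp2 and Gys2, which act in glycogen synthesis, also passed after GC correction. Ugp2, which makes UDP-glucose, the glycogen precursor, had values of 74.0, 82.3, 89.5 and 113 in the controls and 188, 158, 149 and 170.3 in the knockouts (log2 fold change 0.90 ± 0.14 SE, limma adjusted p = 0.0314). Gys2, the liver glycogen synthase gene, had values of 42.1, 54.5, 49.0 and 59.7 in the controls and 85.7, 78.5, 92.1 and 116 in the knockouts (log2 fold change 0.84 ± 0.14 SE, limma adjusted p = 0.0318). Groups did not overlap for either. Of 34 genes of fatty acid and triglyceride synthesis and lipid droplets 2 rose, and both passed after GC correction, as did Pnpla2. The 2 were Lpin2, a phosphatidate phosphatase gene, with values of 34.1, 42.2, 35.2 and 59.7 in the controls and 74.8, 92.2, 96.4 and 112 in the knockouts (log2 fold change 1.14 ± 0.19 SE, limma adjusted p = 0.0318), and Elovl2, an elongase gene for polyunsaturated fatty acids, at 152 ± 18.1 in the knockouts against 88.5 ± 14.0 in the controls (log2 fold change 0.78 ± 0.13 SE, limma adjusted p = 0.0318). The counts of 3 of 44 and 2 of 34 stand beside 5.98% of all genes and are near that background, so they show nothing about either list as a whole. Without Ctrl-5 the glycogen list had 7 higher and 2 lower genes and the lipid synthesis list 2 higher and none lower. Limma called none of 27 genes of cholesterol synthesis and uptake, with 1 higher and 1 lower at an unadjusted p below 0.05. Without any library other than Ctrl-5, at most 1 fat oxidation gene and no gene of the glycogen or lipid synthesis lists was called.

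**Figure D5:**
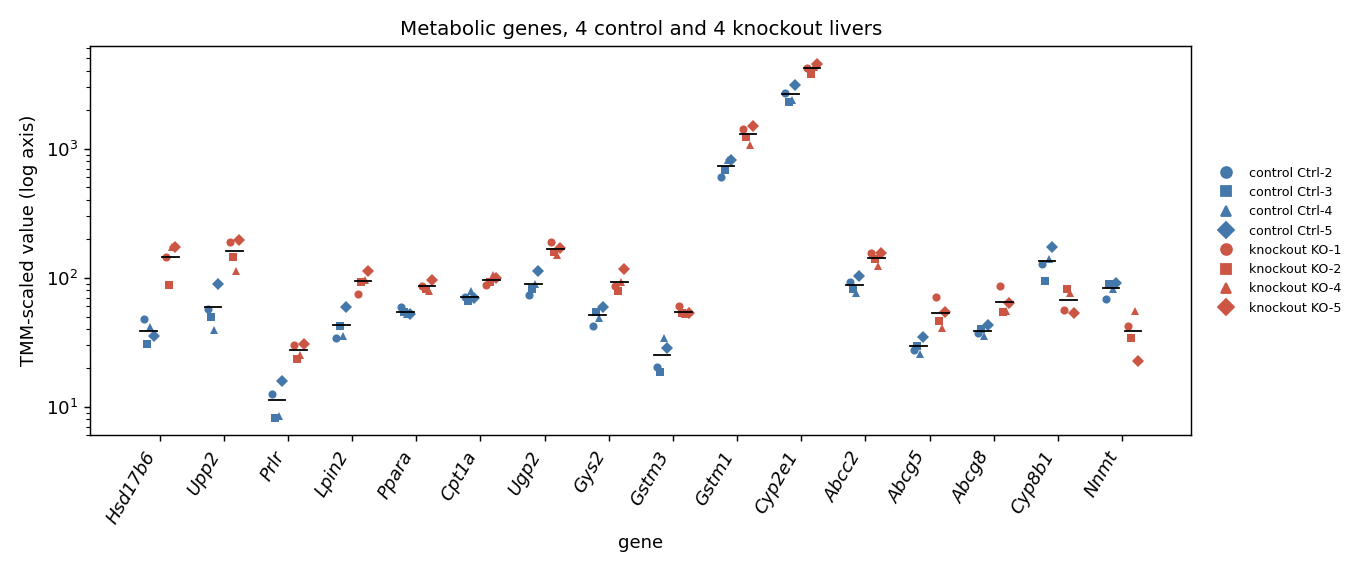
TMM-scaled values (log axis) of 16 metabolic genes in each of the 4 control (blue) and 4 knockout (red) libraries, with a black bar at each group mean. From Hsd17b6 to Abcg8 every knockout lies above every control, as for Gys2 at 42.1 to 59.7 against 78.5 to 116, and for Cyp8b1 and Nnmt every knockout lies below.

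Genes of varied roles were among those with the largest increases. Hsd17b6, which encodes a hydroxysteroid dehydrogenase, had values of 47.8, 30.8, 41.6 and 35.6 in the controls and 145, 88.3, 174 and 173 in the knockouts. The lowest knockout was well above the highest control (log2 fold change 1.84 ± 0.23 SE, limma adjusted p = 0.0314). Upp2, a uridine phosphorylase gene, had values of 56.9, 49.4, 39.4 and 90.1 in the controls and 188, 145, 113 and 195 in the knockouts (log2 fold change 1.46 ± 0.27 SE, limma adjusted p = 0.0357). Prlr, which encodes the prolactin receptor, had values of 12.5, 8.23, 8.53 and 15.7 in the controls and 29.9, 23.5, 25.2 and 30.6 in the knockouts (log2 fold change 1.25 ± 0.20 SE, limma adjusted p = 0.0314). Coq10b, which encodes a coenzyme Q-binding protein of mitochondria, was at 20.7 ± 4.53 in the knockouts against 8.22 ± 1.90 in the controls (log2 fold change 1.23 ± 0.20 SE, limma adjusted p = 0.0314). These 4 genes passed after GC correction. Cr2, which encodes a complement receptor, was at 25.4 ± 2.57 in the knockouts against 7.76 ± 5.70 in the controls (log2 fold change 1.80 ± 0.40 SE, limma adjusted p = 0.0440), and Rab30, a small GTPase gene of the Golgi, at 5.05 ± 1.94 in the knockouts against 1.59 ± 0.563 in the controls, which entered the test through the knockouts alone and was called with the filter (log2 fold change 1.19 ± 0.27 SE, limma adjusted p = 0.0440) and without it (adjusted p = 0.0467). Neither passed after GC correction (1.58 and 0.91, adjusted p = 0.0664 and 0.0728). Hsd17b6 was called in 3 of the 8 fits without 1 library, and the other 5 genes in 1 each.

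Among plasma carriers 3 of 20 tested genes rose and none fell, beside 4.16% and 1.81% of all genes. Serpina6, which encodes corticosteroid-binding globulin, had values of 87.6, 97.7, 81.0 and 104 in the controls and 261, 159, 136 and 264 in the knockouts (log2 fold change 1.09 ± 0.22 SE, limma adjusted p = 0.0391). KO-1 and KO-5 were far above the other 2 knockouts. Selenop, the selenium carrier gene, was at 2147 ± 248 in the knockouts against 1324 ± 184 in the controls (log2 fold change 0.70 ± 0.13 SE, limma adjusted p = 0.0326). Of 26 apolipoprotein and lipoprotein genes 3 rose, among them Tm6sf2, needed to load lipoproteins with lipid, at 16.6 ± 1.14 in the knockouts against 10.9 ± 1.38 in the controls (log2 fold change 0.57 ± 0.10 SE, limma adjusted p = 0.0323). Selenop and Tm6sf2 were called after GC correction and Serpina6 was not (1.05, adjusted p = 0.0528). After GC correction the carrier and apolipoprotein lists each had 1 gene higher. Without Ctrl-5 the carriers had 7 higher and 1 lower and the apolipoprotein list 6 higher, and without any other single library neither list had a called gene.

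Decreases outside the MUP family included transcription factor and junction genes. Atf5, which encodes a stress-responsive transcription factor, had values of 113, 115, 139 and 96.4 in the controls and 55.8, 79.5, 66.0 and 48.6 in the knockouts. No knockout reached the lowest control (log2 fold change −0.89 ± 0.16 SE, limma adjusted p = 0.0339). Of 29 tested hepatocyte transcription factor genes Atf5 fell, Ppara rose and 27 did not pass, beside 5.98% of all genes called. The list had the same counts after GC correction, 2 higher and 3 lower without Ctrl-5, and at most 1 called without any other single library. Irf5, an interferon regulatory factor gene, was at 6.02 ± 1.87 in the knockouts against 13.4 ± 1.82 in the controls (log2 fold change −1.06 ± 0.18 SE, limma adjusted p = 0.0318). Cldn14, a tight junction gene, was at 5.36 ± 0.746 in the knockouts against 11.9 ± 3.48 in the controls (log2 fold change −0.99 ± 0.19 SE, limma adjusted p = 0.0367). Atf5 and Irf5 were called after GC correction, and Cldn14 was not (−0.79, adjusted p = 0.0528).

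Since the series placed Falcor in nuclear speckles, genes of speckles, splicing and export were examined. Of 35 speckle protein and SR kinase genes 2 rose and 1 fell (median 0.02). Srsf3, which encodes a splicing and export factor, had values of 5.69, 7.20, 6.39 and 4.19 in the controls and 2.99, 2.94, 2.61 and 3.60 in the knockouts (log2 fold change −0.75 ± 0.16 SE, limma adjusted p = 0.0389). Luc7l3, a U1-associated splicing factor gene, was at 11.2 ± 0.962 in the knockouts against 7.49 ± 0.335 in the controls (log2 fold change 0.52 ± 0.08 SE, limma adjusted p = 0.0314), and Srrm2, which encodes a core scaffold of speckles, at 51.3 ± 2.50 in the knockouts against 37.2 ± 4.62 in the controls (log2 fold change 0.46 ± 0.10 SE, limma adjusted p = 0.0409). After GC correction Srrm2 rose, Srsf3 and Srsf1 fell, and Luc7l3 was not called (0.30, adjusted p = 0.0926). Without Ctrl-5, 3 rose and 6 fell, or 2 and 7 with GC correction as well.

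Of 24 export and nuclear pore genes 3 rose and none fell (median 0.01). These were the pore genes Ranbp2 (0.45 ± 0.07), Tpr (0.47 ± 0.08) and Nup153 (0.36 ± 0.08), and none of the 3 passed after GC correction (0.21, 0.32 and 0.23, adjusted p = 0.0872, 0.0552 and 0.101). Without Ctrl-5, 3 rose and 1 fell, or 1 and 1 with GC correction as well. Of 44 core spliceosome and hnRNP genes, Sf3b1 and Hnrnpd rose (median −0.11). After GC correction neither was called, and Hnrnpa2b1 and Hnrnpc fell. Without Ctrl-5 more of these genes fell than rose, 4 higher and 7 lower, or 1 and 11 with GC correction as well. These 3 lists thus had 3 of 35, 3 of 24 and 2 of 44 genes called, beside 5.98% of all genes. None of them had a called gene without any single library other than Ctrl-5.

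Small noncoding RNAs moved in both directions. Of 34 small nucleolar and Cajal body RNAs, which guide the modification of ribosomal and spliceosomal RNA, 2 rose and 3 fell, and 1 rose and 2 fell after GC correction. Without Ctrl-5, 3 rose and 5 fell, and without any other single library at most 1 was called. Shares over all genes were 4.16% higher and 1.81% lower with all 8 libraries. Scarna2 had values of 258, 284, 205 and 97.4 in the controls and 69.8, 79.5, 70.4 and 59.5 in the knockouts, with Ctrl-5 the control nearest to the knockouts (log2 fold change −1.48 ± 0.31 SE, limma adjusted p = 0.0422). Scarna17 (log2 fold change −1.47 ± 0.27 SE, limma adjusted p = 0.0353) and Snora31 (log2 fold change −1.27 ± 0.29 SE, limma adjusted p = 0.0458) also fell. Snord15b was listed at 0 in Ctrl-3 and Ctrl-4 and had values of 2.28, 0, 0 and 1.05 in the controls and 5.98, 4.91, 5.21 and 7.21 in the knockouts. It entered the test through the knockouts alone and was called with the filter (log2 fold change 2.07 ± 0.39 SE, limma adjusted p = 0.0357) and without it (adjusted p = 0.0422). Snord3b4 was at 72.8 ± 27.2 in the knockouts against 30.5 ± 8.03 in the controls (log2 fold change 1.20 ± 0.28 SE, limma adjusted p = 0.0456). Rn18s-rs5, a ribosomal RNA row, was at 750.1 ± 128 in the knockouts against 1543 ± 271 in the controls (log2 fold change −1.04 ± 0.17 SE, limma adjusted p = 0.0314) in libraries depleted of ribosomal RNA. The 7SL RNA rows Rn7s1 and Rn7s2 took 25.0 to 38.2% of the control columns and 20.3 to 23.8% of the knockout columns. Both rows were called lower with the same result (log2 fold change −0.74, limma adjusted p = 0.0452), so they are not separate measurements. Mir5124a rose, at 51.4 ± 7.64 in the knockouts against 15.4 ± 8.68 in the controls (log2 fold change 1.79 ± 0.30 SE, limma adjusted p = 0.0322), and Mir7052 fell, at 7.42 ± 1.64 in the knockouts against 16.4 ± 4.71 in the controls (log2 fold change −1.03 ± 0.21 SE, limma adjusted p = 0.0391). These rows are precursor loci, and reads of longer transcripts over them cannot be told apart from the precursors.

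Of all 55774 rows, 3 were listed at 0 in each control and at 3 or more in each knockout, and 1, Falcor, was the reverse. Gm14567, a processed pseudogene on chromosome X at 38969817 to 38969990, had deposited values of 14, 7, 8 and 9 in the knockouts. Gm29819 had deposited values of 15, 18, 7 and 19. The third row carries an Ensembl identifier without a symbol and had 4, 18, 15 and 6. These rows were singled out after their values were seen, for this pattern, and passed the filter through the knockouts alone, so no p is given for them. On the diet labelled HFD, Gm14567 was listed at 0 in 4 of 5 controls and 3 of 6 knockouts, and Gm29819 in 5 of 5 controls and 5 of 6 knockouts.

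The makeup of the tissue was checked with marker genes. In bulk liver, fewer cells of a type and less RNA per cell cannot be told apart. Hepatocyte genes were abundant in all 8 libraries. Alb, the albumin gene, was at 33737 ± 5849 in the knockouts against 23597 ± 3625 in the controls and missed the threshold (log2 fold change 0.51 ± 0.17 SE, limma adjusted p = 0.0889), and Ttr (0.00), Apoa1 (0.03), Cps1 (0.23), Tat (0.26) and Hnf4a (−0.17) did not pass. Of 27 tested pericentral hepatocyte markers 4 rose, namely Cyp2e1, Cyp2a5, Gstm3 and Slco1b2, and of 32 periportal markers 1 rose, Hsd17b6. These counts were 2 and 1 after GC correction and 8 and 10 without Ctrl-5. With all 8 libraries 4.16% of all genes were called higher.

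Limma called none of 19 tested Kupffer cell and macrophage markers, of which 1 was higher and 2 were lower at an unadjusted p below 0.05, and their summed value was 305 to 555 in the controls and 263 to 347 in the knockouts. None of 21 endothelial markers (285 to 367 against 309 to 356), 13 stellate cell markers (147 to 185 against 149 to 199), 5 biliary markers, 6 erythroid markers, 2 lymphocyte markers or 1 neutrophil marker was called, and at an unadjusted p below 0.05 these 6 lists together held 4 higher and 2 lower genes. The share of all genes with such a p was 29.8%. Of 18 pancreatic acinar genes 16 were listed at 0 in every library, among them Prss2 and Cpa1. Of 4 tested adipocyte markers Adrb3 rose, while Lep and Plin1 were listed at 0 in every library. The Y-linked gene Eif2s3y had deposited values of 8 to 14 in the controls and 17 to 23 in the knockouts, so RNA of male mice was present in each library.

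Of the 57 gene lists examined, 20 had no called member. Limma called none of 36 acute phase genes (2 higher and 5 lower at an unadjusted p below 0.05), 28 interferon-induced genes (4 and 1), 16 cytosolic heat shock genes (0 and 2), 11 immediate early genes (0 and 4) or 31 histone genes (0 and 7). Over all genes 29.8% had an unadjusted limma p below 0.05. Of 81 cytosolic ribosomal protein genes 4 rose, and none after GC correction, beside 4.16% of all genes called higher with all 8 libraries. Together the lists held 1297 tested genes and 108 of the 570 called genes.

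The same knockout on the diet labelled HFD gave a different set of values, in a table scaled separately. Limma called 3 of 6176 genes (0.0486%), Falcor, Enho and Fkbp11, and 760 genes had an unadjusted p below 0.05. Of 480 genes called on NCD and tested on HFD, 231 (48.1%) had the same sign there, as did 47.8% of 5648 genes not called. The 2 diets share no library, so diet cannot be told apart from any other difference between the 2 sets of libraries. Control levels differed widely between the sets. Controls had mt-Atp8 at 110 ± 84.3 on NCD and 3281 ± 294 on HFD, and mt-Nd6 at 3466 ± 1225 and 402 ± 69.7.

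The difference between the diets was tested gene by gene. Of 6128 genes tested in both, 437 (7.13%) had a knockout effect that differed, with 154 positive and 283 negative differences (HFD minus NCD). Without the NCD library Ctrl-5 this count was 1169, and without any other NCD library it was 66 to 395. Mup15 was at 2270.5 ± 1138 in 5 HFD controls and 1138 ± 706 in 6 HFD knockouts, with overlapping groups, and its fold change there was −1.04 against −5.47 on NCD (difference 4.43, adjusted p = 0.00949). Mup17 was at −1.40 there (difference 3.03, adjusted p = 0.0328). For Mup9 (HFD −1.84, difference adjusted p = 0.935) and Mup12 (HFD −1.52, adjusted p = 0.457) no difference was detected.

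No clock gene was called on HFD. Per1 was at 5.68 to 9.98 in the HFD controls and 3.49 to 10.6 in the HFD knockouts (HFD −0.23, difference adjusted p = 0.00949). Dbp was at −0.42 (difference adjusted p = 0.0176) and Ciart at −0.56 (difference adjusted p = 0.00773). Among mitochondrial RNAs mt-Atp8 was at −0.11 (difference adjusted p = 0.0291), at 2921 to 3651 in the HFD controls and 2681 to 3927 in the HFD knockouts. For mt-Nd6, at −0.19, the difference did not pass (adjusted p = 0.0587). Among metabolic genes Ugp2 (−0.30), Lpin2 (−0.33) and Abcc2 (−0.37) had HFD values below 0, with difference adjusted p-values of 0.00734, 0.00864 and 0.00773.

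AML12 cells with a conventional Falcor hairpin (3 libraries against 3 with a control hairpin) gave a further comparison that shares no library with the livers. Library totals were 4474760 to 8837581 counts, and edgeR called 6239 of 11568 genes (53.9%), 3091 higher and 3148 lower. Falcor fell in these cells (−2.08, edgeR adjusted p = 0.00202). Of 419 genes called in the NCD livers and tested in AML12, 180 (43.0%) had the same sign. Among these 419, 273 were also called in AML12, 106 with the same sign and the rest with the opposite sign. The 106 are 18.6% of the 570 genes of the NCD list and 1.70% of the AML12 list. Atf5 fell in both (−1.01 in AML12, edgeR adjusted p = 3.59e-07), and Tef and Abcc2 rose in both (1.02 and 1.97). Foxa2 fell in AML12 (−1.49, edgeR adjusted p = 5.96e-09) and did not pass in liver. Ppara (−1.11), Ugp2 (−1.56) and Selenop (−1.31) fell in AML12 and rose in liver, and Srsf3 rose in AML12 (4.31) and fell in liver.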

How the data were processed

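RNA-seq libraries of NCD liver, 4 control and 4 Falcor knockout, were compared. Libraries were depleted of ribosomal RNA and strand-specific, per the labels' protocols. Of the authors' tools, kallisto, DESeq2 and the mm10 build appear in the submitters' processing notes without versions or roles, and the use of strand in counting is not stated there. The deposited NCD and HFD values are treated here as a score: whole numbers whose columns total 833910 to 872375 on NCD, like a rounded length-scaled unit, with unknown depth. The deposited AML12 table holds raw counts per gene, which gives it a counting precision that the liver tables lack.

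Values of each liver table were scaled by TMM and tested with limma 3.58.1 (trend, robust, R 4.3.3) on log2(value + 1) for genes with a mean of at least 3, with no covariates. Effects in the 2 diets were compared gene by gene from both fits' standard errors. AML12 counts were tested with edgeR 4.0.16 (quasi-likelihood), with DESeq2 1.42.0 as an alternative. The fits were tested on simulated data. Library names are the deposited column names, and Ctrl-2 and Ctrl-3 are known only by their group. A total of 21 columns of other groups, including all of the inducible AML12 lines, were not used here. Gene positions and GC content came from GENCODE vM21 (mm10), and promoters from RefSeq (GRCm38.p6).

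Genes were named by a rule: Falcor, Foxa2 and Zc3h11a, tested genes within 1 Mb of Falcor, up to 20 called genes each way by fold change with no overlap, a mean of at least 5 and an established symbol, and up to 8 examples from each of 57 lists. A few genes that met it are not reported here. The members and lists were chosen with earlier results of these data known. Alternatives were other scalings, pseudocounts, filters and variance estimates, library weights, a replicate block, and each library left out. Removal of each library's lowess trend on GC content (span 0.5) and the counts of each list without single libraries were chosen after seeing the data.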

Additional observations from a re-analysis of the deposited data

Results flagged for a closer look

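Single libraries stood apart from the other 3 of their group in 10 of 167 groups of 4 values tested (gap to the nearest value, over the group's range, above Dixon's 95% value). Chance flags about 1 in 20 groups. Among controls, Foxa2 was low in Ctrl-2 (12.5), Mup21 (411) and Mir5124a (28.3) were high in Ctrl-5, and Wee1 was high in Ctrl-3 (2.06). Among knockouts, 4 mitochondrial RNAs were high in KO-5, namely mt-Atp8 (2223), mt-Nd4l (3642), mt-Cytb (2262) and mt-Nd2 (717). Nup153 was also high in KO-5 (9.01), and Gstm3 was high in KO-1 (59.8).

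The knockout effect differed between the diets, by the test of the difference itself, for 39 of the 76 named genes tested in both tables. Most of these genes were named because they were called on NCD, and the test reuses those NCD values. This selection raises the count, which was 437 of 6128 (7.13%) over all genes. Diet also cannot be told apart here from other differences between the sets of libraries. Differences of the 39, HFD minus NCD on the log2(value + 1) scale, were positive for 7 genes and negative for 32. Of the 39, 32 still passed after GC correction on both diets. Mup15 (4.43) and Mup17 (3.03) had less negative values on HFD. Falcor was listed at 0 in every knockout of both diets, so its difference of 2.28 follows its lower level in the HFD controls and is no fold change. The small RNAs Snora31 (2.00), Scarna2 (1.64) and Scarna17 (1.30) and the ribosomal RNA row Rn18s-rs5 (1.24) were also positive.

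Clock genes had lower effects on HFD, with Ciart at −1.85, Per1 at −1.72, Dbp at −1.49, Nr1d2 at −0.89 and Tef at −0.83. The mitochondrial RNAs were at −3.10 (mt-Atp8), −1.58 (mt-Nd4l), −1.52 (mt-Cytb), −1.49 (mt-Nd4), −1.38 (mt-Atp6) and −1.31 (mt-Nd2). Genes of lipid, glycogen and energy metabolism were at −2.06 (Upp2), −1.77 (Coq10b), −1.47 (Lpin2), −1.44 (Hsd17b6), −1.20 (Ugp2), −1.04 (Gys2), −0.87 (Ppara), −0.81 (Elovl2) and −0.63 (Cpt1a). Those of drug and bile acid handling were at −1.55 (Cyp2a5), −1.34 (Slco1a4), −1.12 (Abcg5), −1.06 (Abcc2), −0.94 (Abcg8), −0.77 (Sult2a8), −0.72 (Slco1b2) and −0.66 (Cyp2e1). The carriers Serpina6 (−1.35) and Selenop (−0.63), the small RNA Snord15b (−2.70) and the splicing factor gene Luc7l3 (−0.53) completed the 39.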

How the results depend on the processing

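The count of 570 genes called on NCD moved by over 1.5 times under several settings. It was 1746 with no rescaling between libraries (the cause was not tested), 1610 with library quality weights, 247 after GC correction, 1176 after GC correction without Ctrl-5, and 6 to 1707 with each library left out, where fewer samples enter the fit. It was 393 to 654 with median-of-ratios factors, pseudocounts of 0.5 and 5, other filters or a single prior variance. The HFD count of 3 was 29 with no rescaling, 6 after GC correction and 1 to 8 with each library left out. With a mean of at least 10 limma called 0 of 2432 HFD genes, with 430 at an unadjusted p below 0.05. The count of 437 genes with differing effects was 51 with no rescaling, 291 after GC correction and 66 to 1169 with each library left out. The AML12 count of 6239 was 5357 to 6376 under its alternatives (DESeq2 5357).

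Replicate numbers were shared by Ctrl-4 and KO-4 and by Ctrl-5 and KO-5. A fit of these 4 libraries with the replicate block called 8 genes, 3 higher and 5 lower. Deviations of libraries with the same number correlated at 0.03 and 0.12 on NCD, from −0.09 to 0.20 on HFD and from −0.06 to 0.03 in AML12, so the numbers were not taken as pairs. The block gave 3 genes on HFD and 5898 in AML12.

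Of the 85 named genes none reversed with pseudocounts of 0.5 or 5. After GC correction 25 of 81 lost their call and 2 reversed. With each library other than Ctrl-5 left out, 62 to 70 of 82 to 85 lost their call. With the replicate block 72 of 85 did so, and only Falcor, Mup15 and Mup17 kept theirs. Fewer samples enter these fits. The totals of named genes include some without a call to lose, such as Foxa2, Mup3 and Clock. Shares of lost calls among called genes were therefore higher. All reversed values belong to genes that did not pass the test. Foxa2 was at 0.030 after GC correction without Ctrl-5. Zc3h11a was at −0.077 with the replicate block and −0.068 to 0.20 with each library left out (−0.030 and −0.068 without KO-2 and KO-4). Gzf1 was at −0.015 to 0.066 with each library left out (−0.015 without KO-1), −0.061 after GC correction and −0.075 after it without Ctrl-5. Cst3 was at 0.053 with no rescaling and 0.011 after GC correction. Per2 was at −0.080 (without Ctrl-5) to 0.42. Clock was at 0.15 with no rescaling, 0.023 with weights and −0.089 to 0.027 with each library left out, with 0.027 without Ctrl-5 and 0.00028 without KO-5.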
